A study of Mus musculus with 178 samples.

Results

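The AP-1 and immediate early genes followed here were Jun, Junb, Jund, Fos, Fosb, Atf3, Egr1, Nr4a1, Ier2 and Dusp1, measured by bulk RNA sequencing of mouse whole blood during anti-PD-1 treatment. The 10 genes were chosen by symbol, because Jund had been higher in responders than in non-responders on Day 17, and the Day 17 difference between the response groups is therefore given as a description, with no test. All 10 were found among the 55450 genes of the count table, and all 10 passed edgeR's own filter on low counts in each comparison.

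Blood was taken from 45 C57BL/6J mice aged 6 to 8 weeks that carried 4MOSC1 tumors, a carcinogen-induced oral squamous carcinoma line placed in the tongue or the cheek lining. Every mouse received anti-PD-1 (clone RMP1-14), so no untreated or isotype-treated group enters these comparisons, and response was scored by the study from tumor size. On Days 4 (before treatment), 9, 17 and 24 there were 15, 15, 14 and 15 libraries of responders and 29, 30, 30 and 30 libraries of non-responders, 178 in all, each from 1 mouse on 1 day. The Day 17 library of non-responder 24 carries a responder label, whereas the other 3 days of that mouse are labelled non-responder, and it was counted with the non-responders. Mice carry ear tags of 4 digits (11 responders and 7 non-responders) or of 3 digits (4 responders and 23 non-responders), so that tag series and response are partly confounded.

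The libraries held 26058944 to 82208651 counts, of which haemoglobin genes took 68.7 to 88.0%, leaving 4535309 to 22174654 counts for all other genes. The Day 24 library of non-responder 29 stood apart, with the lowest TMM scaling factor (0.0848, against a median of 1.05) and a summed level of the 6 red cell and reticulocyte markers of 316400 CPM, where the median of its group was 17030 CPM. Calls of the members that changed without this library are given with and without it. Checked against the label of blood, all 7 neutrophil, 6 monocyte, 6 B cell, 6 T cell, 5 natural killer cell, 5 platelet and 6 red cell markers passed the filter on Day 4. The 4 epithelial keratins summed to 0 to 135 CPM per library, and 5 basophil and eosinophil markers to 0.602 to 6.17 CPM. In such samples a smaller number of cells of a type and less RNA per cell cannot be told apart.

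AP-1 is a dimer of basic leucine zipper proteins. Jun, JunB and JunD can pair with each other or with Fos-family proteins such as Fos and FosB, and the dimers bind short palindromic sites near target genes. Fos, Fosb, Jun, Junb, Egr1, Nr4a1, Ier2, Atf3 and Dusp1 are classical immediate early genes. Their transcription starts within minutes of growth factor, cytokine, antigen receptor or stress signals, without new protein synthesis, and their transcripts are short-lived. Egr1 encodes a zinc finger factor, Nr4a1 an orphan nuclear receptor that follows antigen receptor signals in lymphocytes, Atf3 a stress-induced repressor of the ATF family, and Dusp1 a phosphatase that switches off p38, JNK and ERK. Jund is the Jun-family gene that is expressed steadily in many cell types. In blood, neutrophils and monocytes are known for high immediate early transcript levels, which also respond to handling of cells.

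Compared per transcript length, in the deposited TPM, Jund was the most abundant member, with a median of 12.1 TPM over the 178 libraries (lowest 6.45, highest 24.7). Junb followed at 4.07 TPM, Dusp1 at 2.78 TPM, Ier2 at 2.31 TPM and Nr4a1 at 2.00 TPM. Fos had a median of 0.69 TPM but reached 6.82 TPM in 1 library, and Jun (0.32 TPM), Atf3 (0.28 TPM), Egr1 (0.15 TPM) and Fosb (0.07 TPM) were lower. Neighbouring members in this order had overlapping ranges over libraries. The rarest, Fosb, rested on 2 to 117 counts per library (median 26), and Egr1 on 6 to 711 counts (median 57), whereas Jund rested on 1137 to 4325 counts.

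Fos was also the most variable member between mice of a group. Its standard deviation within day and response group was 0.68 on the log2 CPM scale (CPM, counts scaled to library size after TMM adjustment), above that of 98.6% of the 2158 genes of like mean level. Dusp1 (SD 0.51), Nr4a1 (SD 0.38) and Junb (SD 0.31) exceeded 95.8%, 91.7% and 82.9% of genes of their level, whereas Ier2 (SD 0.21) exceeded 61.5%. The wide spread of Fos limits the differences that could be detected for it.

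**Figure D1:**
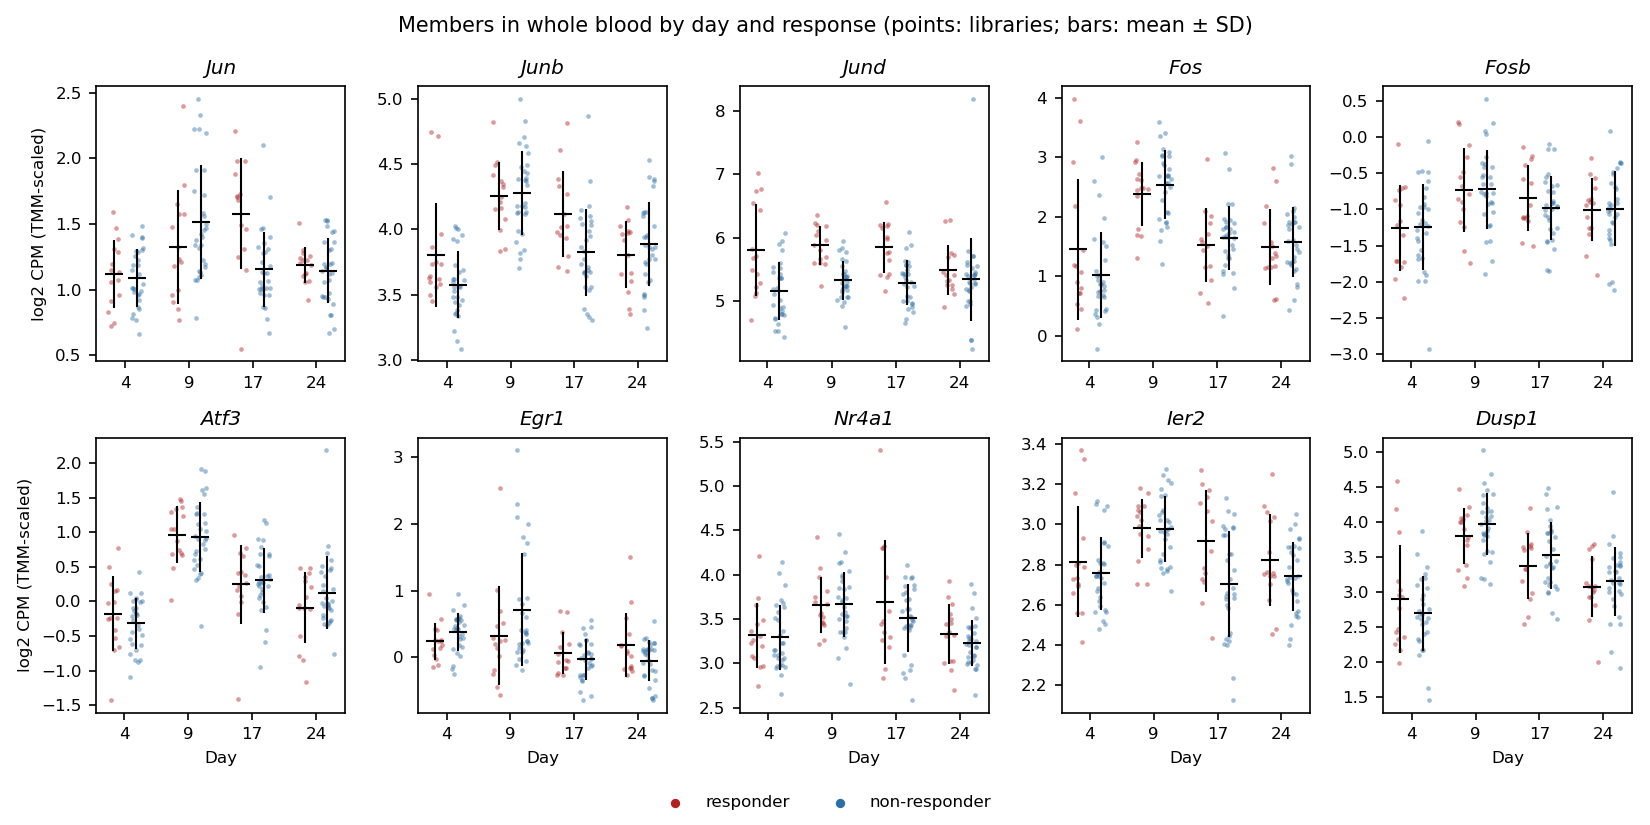
Level of each member in every library (points, TMM-scaled log2 CPM) by day, with the mean and SD of responders (red) and non-responders (blue). Jund was higher in responders on Days 4, 9 and 17 on this scale, though not in TPM on Days 4 and 9, and Fos, Dusp1 and Atf3 were highest on Day 9 in both groups.

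Fos, Dusp1 and Junb varied together between mice, as described further below, and the DNA before their transcription starts is shown for that reason. Each line gives the 250 bases before the RefSeq start on GRCm38.p6, 5′ to 3′ along the gene's strand. The window lies at chr12:85473640-85473889 (plus strand) for Fos, at chr17:26508473-26508722 (minus strand) for Dusp1 and at chr8:84978749-84978998 (minus strand) for Junb. Capitals mark the TATA box letters TATAAA in Fos, the cAMP response element letters TGACGTCA in Dusp1 and the CCAAT box letters CCAAT in Junb.
Fos: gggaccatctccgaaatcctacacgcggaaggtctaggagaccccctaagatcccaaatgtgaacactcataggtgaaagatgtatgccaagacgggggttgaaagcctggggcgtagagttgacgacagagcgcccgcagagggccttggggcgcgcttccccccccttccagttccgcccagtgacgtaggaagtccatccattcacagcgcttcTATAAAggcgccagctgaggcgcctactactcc
Dusp1: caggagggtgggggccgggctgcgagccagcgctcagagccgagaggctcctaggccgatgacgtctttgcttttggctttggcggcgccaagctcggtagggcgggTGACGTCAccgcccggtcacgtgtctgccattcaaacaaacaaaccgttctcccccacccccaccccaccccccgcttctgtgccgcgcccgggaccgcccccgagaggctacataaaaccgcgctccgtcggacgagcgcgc
Junb: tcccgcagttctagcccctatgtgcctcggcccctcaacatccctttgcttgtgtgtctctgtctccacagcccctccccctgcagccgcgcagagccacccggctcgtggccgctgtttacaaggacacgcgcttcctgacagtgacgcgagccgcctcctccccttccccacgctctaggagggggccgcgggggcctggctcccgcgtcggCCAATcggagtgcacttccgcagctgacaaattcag
These motifs were searched on both strands in the window from 250 bases before to 50 bases after each start, together with the AP-1 site TGACTCA, the GC box GGGCGG and the CArG box of serum response factor, given by name alone. TATAAA ended 28 bases before the start of Fos and stood at the first 6 transcribed bases of Junb by the RefSeq start, and TGACGTCA ended 136 bases before the start of Dusp1. Over all 32851 RefSeq promoter windows of this length, 13.6% held TATAAA, 37.4% CCAAT, 35.7% GGGCGG, 5.20% TGACTCA, 1.79% TGACGTCA and 1.63% a CArG box. Of the 10 members, 8 had a promoter sequence in the table, credited to RefSeq. The RefSeq start lies 0, 53656 and 30 bases from the GENCODE M21 gene start for Fos, Dusp1 and Junb, the gene model of Dusp1 being longer in GENCODE, and 1210 bases from it for Jund, whose window is not shown.

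The first comparison asked whether the members differed between responders and non-responders before treatment, on Day 4. Jund was higher in responders in TMM-scaled counts, though not in TPM. Its log2 CPM ran from 4.71 to 7.02 in the responders (median 5.67) and from 4.43 to 6.08 in the non-responders (median 5.10). The groups overlapped, although 13 of 15 responders lay above the non-responder median and 5 above every non-responder. The log2 fold change was 0.77 (SE 0.17, edgeR adjusted p = 0.00335, n = 15 and 29). Jund was the 1 member of 10 that passed, at a background of 7.42% of the 12620 genes tested. The direction depended on the scaling: in TPM, whose total is mostly haemoglobin transcript, the Jund difference was -0.16 on the log2(TPM + 0.1) scale, while the median gene moved by -0.64, so that Jund stood 0.48 above the median gene.

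Fos had the largest estimated difference on Day 4, a log2 fold change of 0.82 (SE 0.30), but its edgeR adjusted p was 0.094, and on the log2(TPM + 0.1) scale the value was -0.27. Fos ran from 0.11 to 3.99 log2 CPM in responders (median 1.07) and from -0.22 to 3.00 in non-responders (median 0.86), so the medians were close and 9 of 15 responders lay above the non-responder median. Within the tag series its direction turned, with a difference of means of 0.49 in 4-digit and -0.21 in 3-digit mice, and that of Dusp1 did so too (0.42 and -0.24). Without responder 6 the fitted Fos value was 0.45. The highest value came from responder 6, whose Day 4 library also held the highest Junb (4.74), Dusp1 (4.58) and Atf3 (0.78) of its group. Junb stood at 3.81 ± 0.40 log2 CPM in responders (SD, n = 15) and 3.58 ± 0.26 in non-responders (SD, n = 29), an edgeR log2 fold change of 0.28 with an adjusted p of 0.085 (-0.56 on the log2(TPM + 0.1) scale). Of the myeloid markers, 4 of 7 neutrophil and 2 of 6 monocyte genes were higher in responders on Day 4 and none lower, with summed neutrophil medians of 238 and 195 CPM, and their part in the Fos and Junb values was not tested. The other 7 members had log2 fold changes between -0.15 (Egr1) and 0.36 (Dusp1, but -0.57 on the log2(TPM + 0.1) scale), none past the threshold.

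On Day 9, after treatment had begun, Jund was again the single member called in counts, at a background of 13.4% of 12608 genes. Its log2 CPM ran from 5.24 to 6.36 in responders (median 5.88) and from 4.59 to 5.95 in non-responders (median 5.29). Of the 15 responders, 14 lay above the non-responder median and 7 above every non-responder, so that the groups overlapped less than on Day 4. The log2 fold change was 0.55 (SE 0.09, edgeR adjusted p = 2.7e-05), and it was -0.17 on the log2(TPM + 0.1) scale, where the median gene moved by -0.605. In that TPM fit the other 9 members were lower in responders by the test, with differences of -0.32 (Fosb) to -0.89 (Dusp1), as were 10800 of all 12090 genes tested, so that the count of 9 is near the background. In counts their edgeR log2 fold changes ran from -0.44 (Egr1) to 0.01 (Atf3). Without responder 2 the Egr1 value was -0.80, past the threshold (edgeR adjusted p = 0.048), and over the other responders left out in turn it did not pass. Within the tag series the Egr1 difference of means turned direction, at -0.16 in 4-digit and 0.21 in 3-digit mice, and with the series as a covariate the fitted value was 0.03.

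On Day 17 the members are described only, since this contrast chose them, and nothing is read from the background of 1.99% of 12520 genes. Jund ran from 5.15 to 6.57 log2 CPM in responders (median 5.87) and from 4.66 to 6.08 in non-responders (median 5.32), a fitted log2 fold change of 0.57. Jun was higher by 0.44, with 1.58 ± 0.42 log2 CPM in responders (SD, n = 14) and 1.16 ± 0.29 in non-responders (SD, n = 30). Nr4a1 (0.32), Junb (0.29), Ier2 (0.22), Fosb (0.15) and Egr1 (0.08) had positive fitted values and Atf3 (-0.04), Fos (-0.06) and Dusp1 (-0.16) negative ones. Within the tag series the Jund difference of means was 0.57 in mice with 4-digit tags and 0.19 in mice with 3-digit tags. That of Jun was 0.23 and 0.06. Fosb (-0.15 and 0.09) and Egr1 (-0.14 and 0.05) turned direction between the series. The values changed little when the library of non-responder 24 was counted with the responders (Jund 0.54, Jun 0.44) or left out (Jund 0.57, Jun 0.45).

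On Day 24 no member passed, at a background of 8.55% of 12469 genes (1066 genes, but 2674 of 12467 without the Day 24 library of non-responder 29), and 1 of the 10, Egr1, had an unadjusted edgeR p under 0.05. DESeq2 called none of the 10, and limma on log2 TPM none of the 9 it tested. Jund stood at 5.49 ± 0.39 log2 CPM in responders (SD, n = 15) and 5.34 ± 0.66 in non-responders (SD, n = 30), where 1 library, that of non-responder 29, reached 8.19 against a median of 5.32. The fitted log2 fold change was -0.02, and 0.26 without that library, not past the threshold in either fit. Egr1 had the largest fitted difference, 0.28 on the log2 scale (SE 0.12), but 0.15 without responder 13, and the other 8 members ran from -0.17 (Atf3) to 0.13 (Nr4a1).

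**Figure D2:**
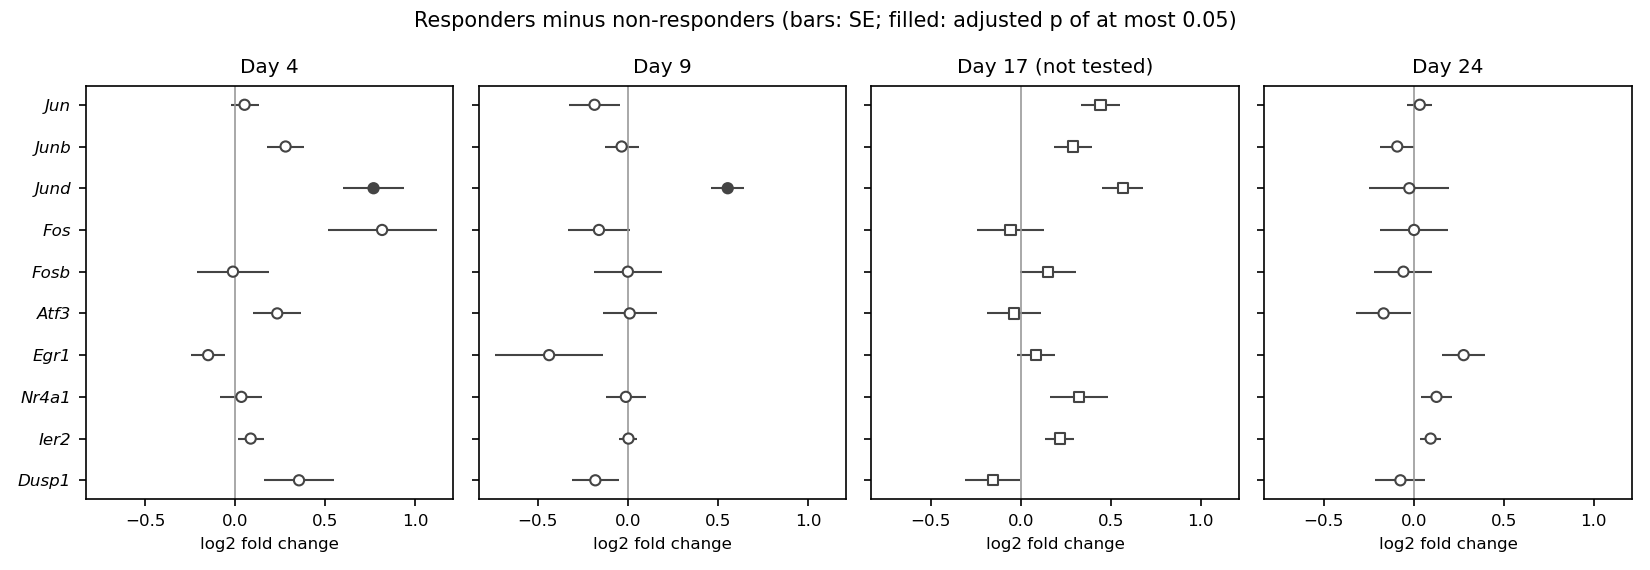
Log2 fold change of each member, responders minus non-responders, from edgeR on each day (bars: SE). Filled circles passed an adjusted p of 0.05 (Jund on Days 4 and 9, a direction not kept in TPM); the Day 17 squares were not tested because that contrast chose the members.

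The Jund differences moved with red cell transcripts. The summed level of the 6 red cell and reticulocyte markers, Alas2 and Slc4a1 among them, had a median of 23020 CPM in responders and 11530 CPM in non-responders on Day 4 (ranges 7434 to 69420 and 5217 to 30070), and 25500 CPM and 13780 CPM on Day 9. All 6 markers were higher in responders on both days by edgeR, with a median log2 fold change of 1.25 and 1.01. Of the 5 platelet markers, 3 were also higher in responders on Day 9 (median 0.38) and none was called on Day 4, and over the 178 libraries Jund had an r of 0.64 with their summed level. The part of platelet transcripts in the Jund values was not tested. On Day 17 the red cell medians were 21510 and 16940 CPM, and on Day 24 they were 16780 and 17030 CPM. With the red cell marker level added to the model, an alternative chosen after seeing the data, the Jund log2 fold change was 0.08 on Day 4 (edgeR adjusted p = 0.87), 0.13 on Day 9 (adjusted p = 0.65) and 0.49 on Day 17, and no gene of the table was called on Day 4 or Day 9. Since responders and non-responders also differ in this marker level, a response difference and a red cell difference cannot be told apart on those days.

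Between mice of the same day and response group, Jund followed the same markers closely. Pearson's r was 0.94 on Day 4 (Spearman's rho 0.95, n = 44), 0.88 on Day 9 (rho 0.85, n = 45), 0.68 on Day 17 (rho 0.67, n = 44) and 0.90 on Day 24 (rho 0.80, n = 45). The two-sided permutation p was 1e-05 for each of the 4 relations, the smallest that 100000 permutations within response groups can give, and the Benjamini-Hochberg adjusted value was 1e-05 too. Without the 2 libraries farthest from the median marker level, r was 0.92, 0.845, 0.61 and 0.72 on Days 4, 9, 17 and 24. Within the mice with 4-digit tags r was 0.93, 0.79, 0.65 and 0.95, and within those with 3-digit tags 0.95, 0.91, 0.56 and 0.76. The relation held in each tag series on each day, and it was weakest on Day 17.

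**Figure D3:**
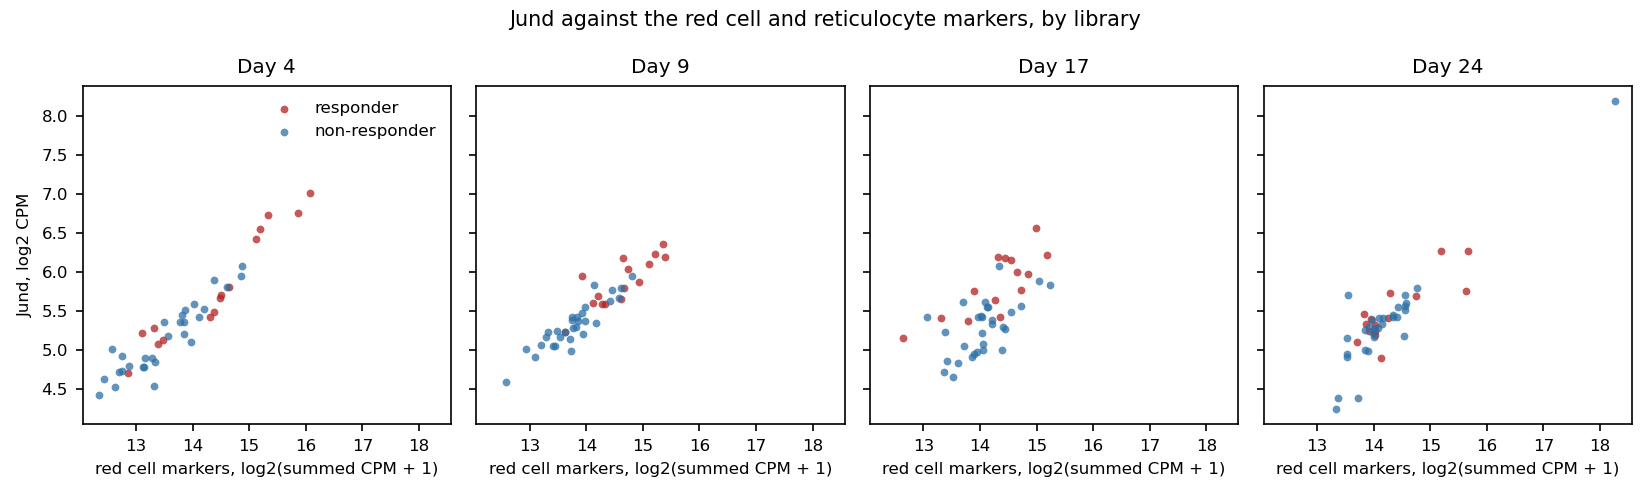
Jund (TMM-scaled log2 CPM) against the summed level of the 6 red cell and reticulocyte markers (log2 of summed CPM + 1), by library and day. Jund rose with the markers on each day (r from 0.68 to 0.94 within response groups), and the point at the far upper right on Day 24 is non-responder 29.

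Over all 178 libraries, with day and response group means removed, the 5 genes most like Jund were Trir (r = 0.92), Fam104a (0.92), Map2k2 (0.91), Iscu (0.905) and Elob (0.90), out of 13687 genes. No other member was near: the r of Jund with the other 9 members ran from -0.17 (Nr4a1) to 0.17 (Fosb), at ranks 3337 to 7736. These r values are descriptions, and the libraries share depth and haemoglobin load. Jund had an r of -0.88 with the TMM factor itself (-0.85 without the Day 24 library of non-responder 29), of 0.74 with the haemoglobin share of counts and of -0.67 with the count of all other genes. Its r with the mitochondrial share of the counts outside haemoglobin was 0.44 (0.545 without that library), and the part of that share was not tested. The part of the scaling factor in the Jund levels was not tested apart from the TPM values above.

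The other lists of the pathway were read beside the same backgrounds, 7.42% of genes on Day 4 and 13.4% on Day 9. Of 15 tested AP-1 dimer partners, 3 were higher in responders on Day 4 and none lower, among them Mafg, a small Maf protein (log2 fold change 0.41, SE 0.09), and Atf5, a stress-response factor (0.60, SE 0.16). Of 27 other immediate early genes, 1 was higher, Ppp1r15a (0.81, SE 0.21), the GADD34 subunit that restores translation after stress. Of 21 signalling genes, Map2k2, the ERK kinase MEK2, was higher (0.66, SE 0.16) and Map2k6, a p38 kinase, lower (-0.30, SE 0.09). The median log2 fold change was 0.20 for the dimer partners, -0.04 for the immediate early genes and -0.02 for the signalling genes, against -0.01 for all genes. On Day 9 the dimer partners had 4 higher of 16, led by Atf4 (0.21) and Atf5 (0.91), the immediate early genes 1 higher (Ppp1r15a, 0.62) and 2 lower (Myc, -0.18, and Btg2, -0.11) of 28, and the signalling genes 2 higher (Map2k2, 0.56, and Map2k3, 0.53) and 1 lower (Rps6ka5, -0.19) of 21. Map2k2 was also 1 of the 5 genes most like Jund, which itself followed the red cell markers. With the red cell marker level in the model no gene was called on Day 4 or Day 9, those named here included. On the log2(TPM + 1) scale 10122 of 12020 genes were lower in responders on Day 4 and 10644 of 12090 on Day 9. On Day 24, beside the 8.55% of all genes, the dimer partners had 1 lower of 16, the other immediate early genes 1 higher (Dusp5, 0.32) and 1 lower (Cd69, -0.31) of 27, and the signalling genes 4 higher of 21, among them Rps6ka1 (0.22) and Mapk3 (0.23).

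The next question was how the members changed under treatment. From Day 4 to Day 9 Atf3, Dusp1, Junb and Fosb rose in both response groups, and Fos, Egr1, Jun, Nr4a1 and Ier2 passed the test in non-responders. In non-responders 9 of 10 members rose, all but Jund (0.13, SE 0.14, edgeR adjusted p = 0.46), where 50.8% of 13009 genes changed in either direction. The median over the members was 0.58 on the log2 scale, against -0.01 for all genes. In responders 4 of 10 rose and none fell, where 27.7% of 12560 genes changed, with a median of 0.39 over the members. On the log2(TPM + 1) scale, which is set by the haemoglobin-rich total, limma called 5 of 10 members in non-responders, all higher, where 2399 of 12298 genes were called, and none of 9 in responders, where 193 of 11886 were.

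Fos rose most in the non-responders. Its log2 CPM ran from -0.22 to 3.00 on Day 4 (median 0.86) and from 1.21 to 3.59 on Day 9 (median 2.66), so the ranges overlapped and 28 of 29 mice with both days were higher on Day 9. The log2 fold change was 1.40 (SE 0.16, edgeR adjusted p = 9.0e-13). In responders the median of Fos went from 1.07 to 2.48, and 12 of 15 mice were higher, but the fitted change was 0.44 (SE 0.30, adjusted p = 0.29) on mean counts, to which responder 6 contributed the highest Day 4 value (3.99). With each mouse as a replicate block, which pairs the libraries of 1 animal, the change of Fos in responders was 0.87 and passed the threshold. Within the tag series the responders' change of Fos was 0.22 in 4-digit and 1.58 in 3-digit mice, past the threshold in the latter. The mean change per mouse was 0.93 ± 1.29 in responders (SD, n = 15) and 1.5 ± 0.78 in non-responders (SD, n = 29).

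Atf3 rose in both groups, by 1.31 in non-responders (SE 0.12, edgeR adjusted p = 9.1e-18) and by 1.10 in responders (SE 0.17, adjusted p = 3.1e-06). Its median went from -0.21 to 0.91 log2 CPM in non-responders and from -0.23 to 1.05 in responders, and all 15 responders and 28 of 29 non-responders were higher. Dusp1 rose by 1.24 in non-responders (SE 0.12), in 29 of 29 mice, and by 0.72 in responders (SE 0.20), in 12 of 15, with 0.47 in their 4-digit mice, not past the threshold, and 1.52 in their 3-digit mice. Dusp1 medians were 2.69 and 4.00 log2 CPM in non-responders and 2.78 and 3.90 in responders. Junb rose by 0.71 and 0.42 (SE 0.08 and 0.12), and Fosb by 0.53 and 0.56 (SE 0.14 and 0.20), in non-responders and responders, so that these 4 members rose in both groups. Junb (0.33) and Fosb (0.39) did not pass in the 4-digit responders taken alone, and passed in the 3-digit ones (0.60 and 1.26). Atf3 passed in both series of responders (0.90 and 1.695).

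Jun (0.48, SE 0.08), Egr1 (0.63, SE 0.14), Nr4a1 (0.37, SE 0.09) and Ier2 (0.22, SE 0.05) rose on Day 9 by the test in non-responders. In responders their values were 0.26, 0.36, 0.34 and 0.15, not past the threshold. The Egr1 call did not come from most mice. The Egr1 median was 0.43 log2 CPM on Day 4 and 0.37 on Day 9 in non-responders, 12 of 29 mice were higher, and the Day 9 range reached 3.11 in non-responder 12. Egr1 was high in some libraries on Day 9, and its median over all non-responders did not rise. Within the tag series the Egr1 change in non-responders was -0.07 in 4-digit and 0.76 in 3-digit mice, past the threshold in the latter. Jun (0.34), Nr4a1 (0.31) and Ier2 (0.18) did not pass in the 7 non-responders with 4-digit tags. They passed in the more numerous 3-digit ones, at the similar values of 0.50, 0.38 and 0.22. The series fit described below, over both response groups, called no series difference for their change to Day 9 (edgeR adjusted p = 0.48, 0.80 and 0.57). Over both response groups the Egr1 median went from 0.15 to 0.21 in 4-digit and from 0.46 to 0.61 in 3-digit mice.

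Myeloid markers rose on the same day. The summed level of the 7 neutrophil markers had a median of 195 CPM on Day 4 and 347 CPM on Day 9 in non-responders, and of 238 and 392 CPM in responders. For the 6 monocyte markers the medians were 356 and 608 CPM in non-responders and 472 and 620 CPM in responders. Of these markers, 6 of 7 neutrophil and 6 of 6 monocyte genes rose in non-responders, and 6 of 6 T cell and 6 of 6 B cell genes fell. There, 4 of 6 red cell and 3 of 4 basophil and eosinophil markers also rose, and 4 of 5 platelet markers fell. In responders 3 of 7 neutrophil and 3 of 6 monocyte genes rose, and 6 of 6 T cell and 4 of 6 B cell genes fell. With the neutrophil and monocyte levels in the model, an alternative chosen after seeing the data, the Day 9 changes in non-responders were 0.65 for Fos, 0.69 for Dusp1, 0.70 for Atf3, 0.75 for Egr1, 0.28 for Jun and 0.23 for Junb, all past the threshold, while Fosb (0.14), Nr4a1 (-0.09) and Ier2 (-0.08) no longer passed. In responders Atf3 (0.68) and Egr1 (0.575) passed, and Dusp1 (0.37, edgeR adjusted p = 0.12), Junb (0.16, adjusted p = 0.21) and Fosb (0.50, adjusted p = 0.10) no longer did.

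Keratin transcripts moved with Egr1 and Jun. The summed level of the 4 epithelial markers (Krt5, Krt14, Krt13 and Krt6a) had a median of 1.36 CPM on Day 4 and 5.46 CPM on Day 9 in non-responders (highest 8.81 and 135 CPM), and of 0 and 1.53 CPM in responders (highest 6.80 and 43.2 CPM). The 2 keratins that passed the filter rose on Day 9 in both groups by edgeR. Over the 178 libraries, with day and response means removed, this level had an r of 0.615 with Jun and 0.58 with Egr1, against -0.02 with Fos and 0.155 with Jund. The part of epithelial material in the Jun and Egr1 values was not tested.

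On Day 9 the related lists were read beside all genes, of which 3030 of 13009 rose and 3575 fell in non-responders and 1694 of 12560 rose and 1782 fell in responders. Of the 16 tested dimer partners 8 rose in non-responders, a share near the 50.8% of genes called in either direction, and 7 rose in responders, and none fell. Fosl2, which encodes the Fos-family protein Fra-2, rose by 1.14 in non-responders (SE 0.10) and 0.86 in responders (SE 0.14). Of the other immediate early genes 18 of 28 rose and 3 fell in non-responders, and 10 of 27 rose and 1 fell in responders. Klf10 rose by 0.78 in both groups, and Klf2, a factor of quiescent lymphocytes, fell by 0.30 in non-responders and by 0.26 in responders. The signalling genes had 2 of 21 higher and 6 lower in non-responders, with a median of -0.02.

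By Day 17 fewer members were called against Day 4. In non-responders 4 of the 9 members counted (Jund is left out of Day 17 counts) were higher than on Day 4, where 46.1% of genes changed: Dusp1 (0.80, SE 0.12), Atf3 (0.65, SE 0.12), Fos (0.49, SE 0.16) and Junb (0.25, SE 0.08, but -0.14 on the log2(TPM + 0.1) scale). Egr1 was lower, by a log2 fold change of -0.43 (SE 0.15, edgeR adjusted p = 0.012). Within the tag series none of these members passed in the 7 non-responders with 4-digit tags. Dusp1 was there at 0.69 (edgeR adjusted p = 0.061), Atf3 at 0.64 (adjusted p = 0.054), Fos at 0.18, Egr1 at -0.05 and Junb at 0.43. In 3-digit mice Fos (0.60), Egr1 (-0.55), Dusp1 (0.84) and Atf3 (0.66) passed and Junb (0.20) did not. The series fit described below called no series difference for Dusp1 (edgeR adjusted p = 0.20) or Atf3 (adjusted p = 0.82). Over all non-responders 6 of 7 neutrophil markers were higher and 1 lower (median 0.69), and 2 of 6 monocyte and 4 of 6 red cell markers were higher. There, 6 of 6 T cell, 5 of 6 B cell, 4 of 5 natural killer cell and 1 of 2 keratin markers were lower. With the neutrophil and monocyte marker levels in the model Fos was at 0.19 (edgeR adjusted p = 0.36) and Junb at -0.04 (adjusted p = 0.62), no longer past the threshold, whereas Dusp1 (0.48), Atf3 (0.43) and Egr1 (-0.38) still passed, and Ier2 passed as lower (-0.18). Nr4a1 was at 0.20 (edgeR adjusted p = 0.055), and at 0.20 with an adjusted p of 0.049 once non-responder 29 on Day 24 was left out of the fit. In responders 2 of 9 were higher, Jun (0.47, SE 0.12, adjusted p = 0.0039) and Nr4a1 (0.51, SE 0.17, adjusted p = 0.025), where 25.6% of genes changed. Within the tag series Jun in responders was at 0.66 in 4-digit mice and at -0.17 in 3-digit mice, so that its direction turned, and Nr4a1 at 0.48 and 0.56. In non-responders Jun was also at 0.66 in 4-digit mice, past the threshold (edgeR adjusted p = 0.00086), and at -0.12 in 3-digit mice, not past it. In the responder contrast 4 of 7 neutrophil markers were higher and 1 lower, and 5 of 6 T cell and 5 of 6 B cell markers were lower. There, 1 of 2 keratins was higher, and 2 of 5 natural killer cell and 1 of 6 monocyte markers were lower. With neutrophil and monocyte levels in the model Jun (0.38, edgeR adjusted p = 0.021) and Nr4a1 (0.58, adjusted p = 0.0066) still passed in responders. The part of T cell, B cell, natural killer cell and keratin transcripts was not tested. Nr4a1 in responders ran from 2.84 to 5.40 log2 CPM on Day 17 (median 3.46), with the highest value in responder 11, and from 2.74 to 4.21 on Day 4 (median 3.26). Its ranges overlapped, and 9 of 14 mice were higher. Of the related lists in non-responders, 6 of 16 dimer partners were higher, 10 of 28 immediate early genes were higher and 4 lower, and 8 of 21 signalling genes were lower, shares near or under the 46.1% of all genes called. In responders 5 of 16 dimer partners were higher, 9 of 27 immediate early genes were higher and 1 lower, and 3 of 21 signalling genes were lower.

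On Day 24 no member was called against Day 4 in responders, where 17.4% of genes were. None of the 10 had an adjusted p under 0.05 by edgeR or DESeq2, and 1, Jund, had an unadjusted edgeR p under 0.05. In non-responders 5 members were higher and 1 lower, where 48.7% of genes changed. Dusp1 (0.40, SE 0.12), Atf3 (0.40, SE 0.12), Junb (0.31, SE 0.08), Fos (0.39, SE 0.17) and Jund (0.34, SE 0.14) were higher in counts but between -0.28 (Jund) and -0.03 (Atf3) on the log2(TPM + 1) scale, where the median gene moved by -0.18, and Egr1 was lower (-0.46, SE 0.15). In the same contrast 6 of 6 red cell markers were higher (median 1.65, or 0.66 once non-responder 29 on Day 24 was left out), and 5 of 7 neutrophil markers were higher, while 6 of 6 T cell, 5 of 5 natural killer cell and 5 of 5 platelet markers were lower. The part of red cell, T cell, natural killer cell and platelet transcripts in these values was not tested. With neutrophil and monocyte levels in the model Fos (0.43), Dusp1 (0.27), Atf3 (0.46), Junb (0.17), Jund (0.36) and Egr1 (-0.47) all still passed. Without the Day 24 library of non-responder 29 there were 4 members called instead of 6. Jund was then at 0.05 and Fos at 0.36, neither past the threshold, while Dusp1 (0.36), Atf3 (0.36), Junb (0.28) and Egr1 (-0.47) still passed. With the mouse as a replicate block Jund was at 0.20, not past the threshold, and Fos at 0.45, past it, and Fos still passed (0.43) when the block fit left that library out. Within the tag series, with that library included, Jund alone passed in the 7 non-responders with 4-digit tags (0.95). In the 3-digit ones Jund was at 0.07. Fos passed in neither series (0.49 in 4-digit and 0.38 in 3-digit mice). Dusp1 (0.43 and 0.40), Atf3 (0.33 and 0.44), Junb (0.17 and 0.35) and Egr1 (-0.24 and -0.51) passed in the 3-digit mice alone.

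**Figure D4:**
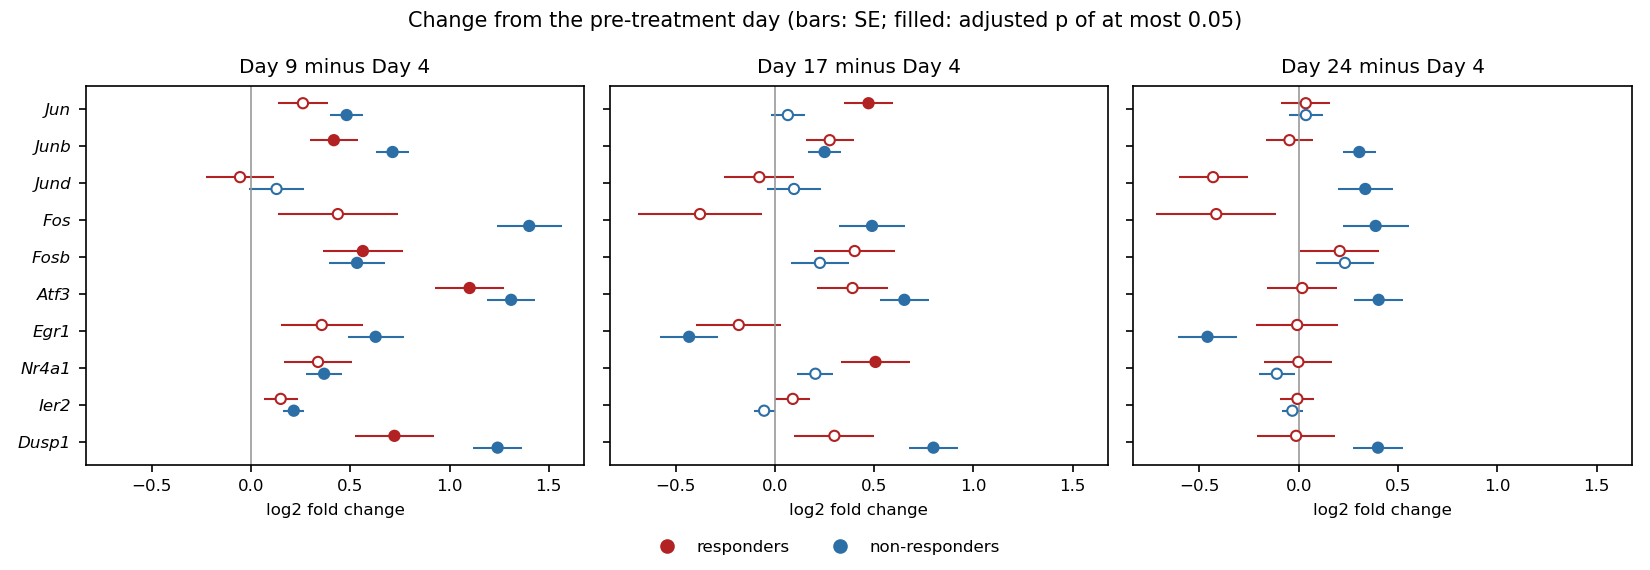
Log2 fold change of each member from Day 4 to Days 9, 17 and 24 in responders (red) and non-responders (blue), from edgeR (bars: SE; filled: adjusted p of at most 0.05). On Day 9 Atf3, Dusp1, Junb and Fosb rose in both groups, and by Day 24 no member was called in responders.

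Whether the changes differed between the response groups was tested as an interaction over all 178 libraries. From Day 4 to Day 9 no gene of 13688 was called (0%), so no member was. At an unadjusted edgeR p under 0.05 there were 3 members, Fos (difference of changes -0.98, SE 0.31), Dusp1 (-0.53, SE 0.22) and Junb (-0.31, SE 0.14), and DESeq2 also called none. The other 7 members ran from -0.28 (Egr1) to 0.02 (Fosb). The 3 values were smaller in size with the mouse as a replicate block (-0.62, -0.39 and -0.25) and with the ear tag series as a covariate (-0.61, -0.22 and -0.11), where no member had an unadjusted p under 0.05. From Day 4 to Day 24, 3.76% of genes were called and Jund was the 1 member among them, at -0.76 (SE 0.23, edgeR adjusted p = 0.039). The values of the 10 members ran from -0.81, not past the threshold, to 0.44, and 3 had an unadjusted edgeR p under 0.05. For Jund, leaving out non-responder 29 on Day 24 gave -0.50, and the mouse block gave -0.57, no longer past the threshold in either fit. The TPM fit with 0.1 added gave 0.18 for Jund. Of all genes, 515 of 13688 were called, but 154 of 13689 without that library and 212 with the block. The red cell markers moved with Jund here: all 6 were lower in the same test, with a median of -1.55, while without that library none was called and the median was -0.66, and their part in the Jund value was not tested.

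The members fell into unlike patterns between mice. Within a day, with response group means removed, Fos was related to Dusp1 most closely over all mice. Pearson's r was 0.86 on Day 4 (Spearman's rho 0.77), 0.62 on Day 9 (rho 0.55), 0.68 on Day 17 (rho 0.61) and 0.85 on Day 24 (rho 0.87), over 44 or 45 mice. The two-sided permutation p of r was 1e-05 each day, the smallest that 100000 permutations within response groups can give (Benjamini-Hochberg adjusted 5.14e-05 over 36 relations), and that of rho was at most 0.00015. Without the 2 libraries farthest from the Fos median, r was 0.80, 0.57, 0.64 and 0.88. Within the 4-digit series it was 0.96, 0.79, 0.58 and 0.90, and within the 3-digit series 0.70, 0.67, 0.72 and 0.87. In the 3-digit series Fosb was closer to Fos on Day 9 (r = 0.71) and Junb on Day 17 (r = 0.79). Ier2 was level with Dusp1 there on Day 4 (r = 0.70).

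Junb was related to Fos on each day too, with r of 0.77, 0.40, 0.58 and 0.67 on Days 4, 9, 17 and 24 (rho 0.63, 0.35, 0.60 and 0.64). Its permutation p ran from 1e-05, the smallest possible, to 0.00764 for r (adjusted 5.14e-05 to 0.0162) and to 0.0206 for rho. Ier2 had r of 0.80, 0.49, 0.47 and 0.59 (rho 0.61, 0.37, 0.35 and 0.53), with a permutation p of at most 0.00153 for r (adjusted 0.00384) and 0.0222 for rho. Without the 2 farthest libraries these became 0.63, 0.37, 0.55 and 0.66 for Junb and 0.71, 0.43, 0.36 and 0.48 for Ier2. In the 4-digit mice the r of Ier2 with Fos on Day 17 was -0.02, so that relation did not hold in that series. Jun, Egr1 and Jund had no relation with Fos past the adjusted threshold on any day over all mice, with r from -0.25 to 0.29. Within the series this differed for Egr1 on Day 9, whose r with Fos was -0.755 in the mice with 4-digit tags (n = 18) and 0.296 in those with 3-digit tags (n = 27), a difference that was not tested. In all, 19 of 36 relations passed after adjustment, 4 each for Dusp1, Junb and Ier2, 3 for Nr4a1 and 2 each for Atf3 and Fosb. The relation of Nr4a1 with Fos on Day 24 (r = 0.44) did not hold in the 3-digit mice, where r was -0.18 against 0.69 in the 4-digit mice, and its adjusted permutation p by rho was 0.063. By rho the Nr4a1 relation on Day 4 did not pass either (rho 0.315, adjusted permutation p = 0.068). In 4-digit and 3-digit mice r was 0.32 and 0.79 for Junb on Day 17. It was 0.22 and 0.58 for Atf3 on Day 17, and 0.165 and 0.71 for Fosb on Day 9. On the log2(TPM + 1) scale all 36 relations passed after adjustment, a scale on which the haemoglobin share enters every member of a library.

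Over the 178 libraries the 5 genes most like Fos were Dusp1 (r = 0.78), Junb (0.61), Il1b (0.61), Cd300lb (0.60) and Ier2 (0.60), of which 3 are members and Il1b encodes the inflammatory cytokine interleukin-1β. Junb followed the neutrophil markers (r = 0.73), Dusp1 did so less (0.59), and Atf3 was nearer to the monocyte markers (0.49) than to the neutrophil markers (0.24). Fos had an r of 0.39 with the neutrophil and 0.38 with the monocyte markers. Jun had the same r of 0.53 with Egr1 and with Junb, and Nr4a1 was nearest to Ier2 (0.49). These values describe libraries that share depth and cell mixture, and carry no test.

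Jun and Egr1 moved with the ear tag series. On Day 17 Jun stood at 1.67 ± 0.28 log2 CPM in mice with 4-digit tags (SD, n = 17) and at 1.05 ± 0.20 in mice with 3-digit tags (SD, n = 27). Among mice with 4-digit tags it was 1.77 ± 0.26 in responders (SD, n = 10) and 1.54 ± 0.28 in non-responders (SD, n = 7). Among mice with 3-digit tags it was 1.10 ± 0.39 in responders (SD, n = 4) and 1.04 ± 0.16 in non-responders (SD, n = 23). From Day 4 to Day 17 Jun was higher in 17 of 17 mice with 4-digit tags, by 0.67 ± 0.32 (SD), and was higher in 9 of 26 with 3-digit tags, with a mean change of -0.13 ± 0.30 (SD). In a fit with tag series, response and day, added after seeing the data, the change of Jun differed between the series by 0.81 (SE 0.15, edgeR adjusted p = 2.2e-05).

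The same fit gave a difference between the series for the change of Fos to Day 17 (-1.18, SE 0.38, edgeR adjusted p = 0.012) and for the change of Egr1 to Day 9 (-0.91, SE 0.26, adjusted p = 0.025). It gives the response groups equal weight, though only 4 responders carry 3-digit tags. In responders the change of Fos to Day 17 was -0.77 in 4-digit and 1.18 in 3-digit mice, and in non-responders 0.18 and 0.60. Fos was higher on Day 17 than on Day 4 in 20 of 26 mice with 3-digit tags (mean change 0.66 ± 1.03, SD) and in 12 of 17 with 4-digit tags (0.12 ± 1.18, SD). The series were alike in Fos on Day 17, with means of 1.60 and 1.61 log2 CPM in 4-digit and 3-digit mice, and stood apart on Day 4, at 1.52 ± 1.12 (SD, n = 18) and 0.93 ± 0.67 (SD, n = 26). Egr1 on Day 9 stood at 0.12 ± 0.33 log2 CPM in mice with 4-digit tags (SD, n = 18) and 0.90 ± 0.91 in mice with 3-digit tags (SD, n = 27). With the mouse as a replicate block, added after seeing the data, the difference was 0.83 for Jun and -0.87 for Fos on Day 17 (edgeR adjusted p = 8.8e-06 and 0.047), and -0.69 for Egr1 on Day 9 (adjusted p = 0.066), no longer past the threshold. From Day 4 to Day 17 Egr1 was lower in 26 of 26 mice with 3-digit tags, and in 10 of 17 with 4-digit tags. The series difference called 1 of 10 members on Day 9, 2 of 9 on Day 17 and none on Day 24, at backgrounds of 6.55%, 26.6% and 9.38% of 14606 genes. What the series stands for is not given in the labels, and its part in the Jun, Fos and Egr1 values was not tested further.

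The response difference of Jund was also taken within each series. The difference of means was 0.56 and 0.79 on Day 4, 0.38 and 0.49 on Day 9, and -0.23 and 0.33 on Day 24, in mice with 4-digit and 3-digit tags, with the library of non-responder 29 included on Day 24. On Day 9 it passed the edgeR threshold in the 3-digit mice alone (log2 fold change 0.53), where 568 of 13629 genes were called, and on Day 4 in neither series alone (0.70 and 0.91). No gene at all was called in the 4-digit mice on Day 9 (of 11884), or in the 4-digit (of 12216) or 3-digit mice (of 13394) on Day 4. With the series as a covariate it was 0.81 on Day 4 and 0.44 on Day 9, past the threshold on both. Leaving out each responder in turn gave log2 fold changes of 0.64 to 0.82 on Day 4 and 0.52 to 0.60 on Day 9, past the threshold each time.

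**Figure D5:**
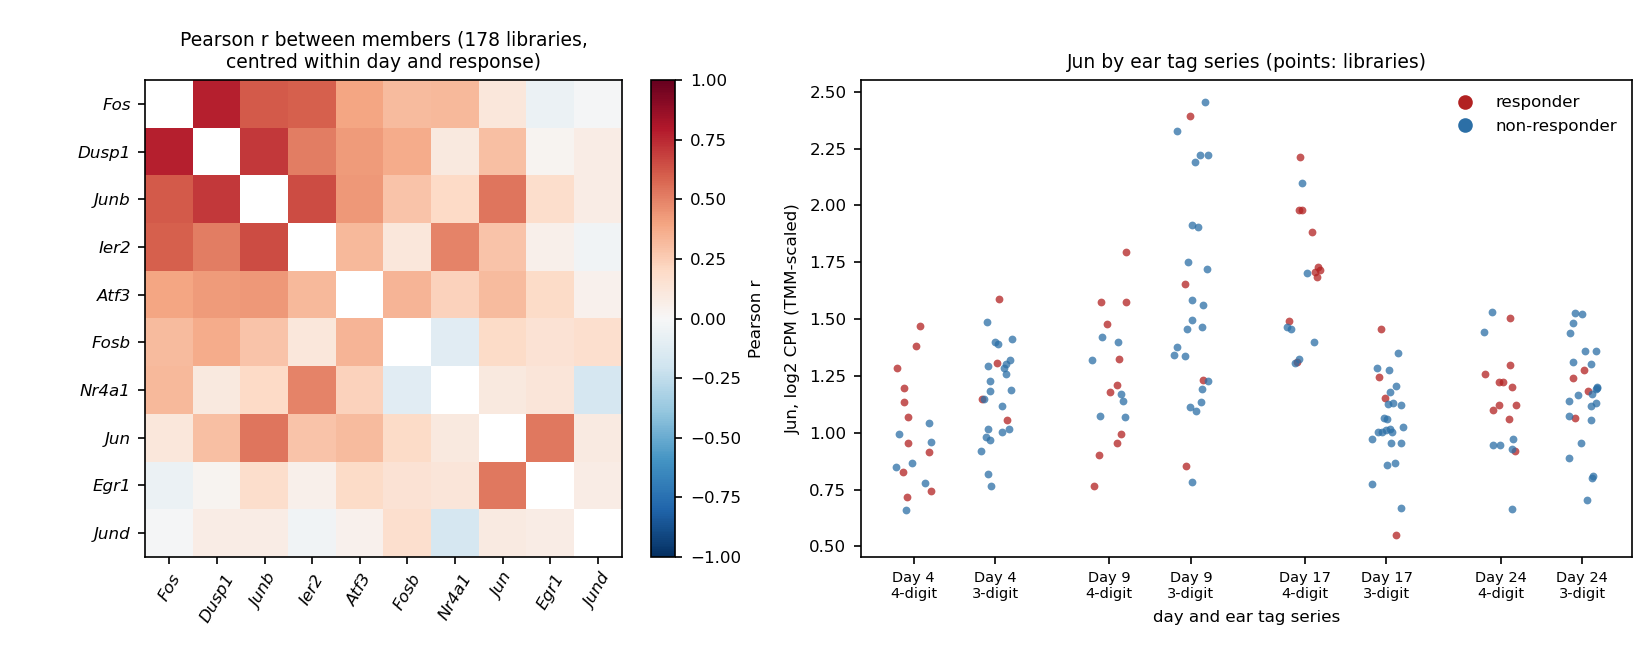
Left: Pearson r between members over 178 libraries, with day and response means removed; Fos, Dusp1, Junb and Ier2 form 1 block and Jund stands apart. Right: Jun (TMM-scaled log2 CPM) by day and ear tag series, each point 1 library; on Day 17 the mice with 4-digit tags lie mostly above those with 3-digit tags, with means of 1.67 and 1.05.

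Some members share their locus with other transcripts. In GENCODE M21 (GRCm38) the Junb gene (chr8:84974484-84978718, minus strand) overlaps Prdx2, a peroxiredoxin abundant in red cells, on the opposite strand, and the Jund gene (chr8:70698949-70700616, plus strand) overlaps the antisense gene Gm11175. Jun overlaps the antisense gene Junos, and Dusp1 lies in a gene model that overlaps Ergic1. Whether the counting used strand is not given in the sources used here, so reads of overlapping genes on opposite strands may not be told apart. Junb had an r of -0.095 with the red cell markers over the 178 libraries, and Jund 0.875 (0.84 without the Day 24 library of non-responder 29).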

How the data were processed

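RNA from whole blood was sequenced by the authors as polyadenylated mRNA. Per the submitters' processing notes, reads were aligned with STAR to mm10. The counter, the annotation and whether strand was used are not given in the sources used here. The authors deposited estimated counts for 55450 genes, of which 10.3% of the values above 0 were not whole and were rounded here (all values of the members were whole), and TPM, which they scaled to the library total with haemoglobin included.

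The members and lists were chosen with earlier results of these data known. Animals, identified by ear tag, were the replicates. Counts were tested with edgeR 4.0.16 (R 4.3.3; TMM scaling, filterByExpr, quasi-likelihood test, Benjamini-Hochberg adjusted p of at most 0.05 over all genes tested). Levels are log2 CPM with a prior count of 2. Log2 TPM with 1 or 0.1 added was tested with limma 3.58.1, and DESeq2 1.42.0 was an alternative. The edgeR step was tested on simulated data. The naming rule took all 10 members (a comparison's counts or range cover those it does not name), at most 2 called genes per related list and direction, those of smallest p, and the 5 genes most like Jund and Fos by Pearson's r. Some genes of the related lists that this rule would name are not reported here. Correlations across mice used 100000 permutations within response groups. Libraries with the same mouse number come from the same animal, by ear tag, and were fitted also with the mouse as a replicate block. Deviations of the same mouse on 2 days correlated with a mean r of -0.0495 to 0.0966 across genes. Other alternatives were filters, removal of haemoglobin genes, tag series, single libraries left out and marker levels as covariates. All 178 samples were used, and they hold no library of non-responder 23 on Day 4 or of responder 8 on Day 17.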

Additional observations from a re-analysis of the deposited data

Results flagged for a closer look

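The change of Jund from Day 4 to Day 24 differed between the response groups, by -0.76 on the log2 scale (responders minus non-responders), in a test of the difference itself. Without the Day 24 library of non-responder 29 the value was -0.50 and no longer passed. Nor did it pass with the mouse as a replicate block, and on the log2(TPM + 0.1) scale it was positive, as for every member. In the edgeR test over all libraries the 6 red cell and reticulocyte markers were all lower, with a median of -1.55. Without the Day 24 library of non-responder 29 their median was -0.66 and none was called. Their part in the Jund value was not tested.

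Between the mice with 4-digit and with 3-digit ear tags, the change of Egr1 from Day 4 to Day 9 differed by -0.91, the change of Jun from Day 4 to Day 17 by 0.81, and the change of Fos from Day 4 to Day 17 by -1.18. Responders and non-responders have equal weight in these values, though only 4 responders carry 3-digit tags. With the mouse as a replicate block these were -0.69 for Egr1, no longer past the threshold, 0.83 for Jun and -0.87 for Fos, the last with an edgeR adjusted p of 0.047. The call of 2 of 9 members on Day 17 stands beside a background of 26.6% of genes. The values come from a test of the difference between the series that was added after seeing the data, and the part of the series in them was not tested further.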

How the results depend on the processing

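Over the alternatives, 1503 values of the members stayed on their side of the threshold, 67 no longer passed, 34 passed in addition and 36 that passed in at least 1 of the fits compared reversed, 31 of these on a TPM scale. Of the 1503, 175 that passed in neither fit changed sign, 55 of them on a TPM scale, and the reversed values named here leave those out. Depth limits Fosb, Egr1 and Atf3 most, with as few as 2, 6 and 5 counts in a library. The causes were not tested.

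In counts, 1 member (Jund, higher in responders) was called between the response groups on Day 4, 1 on Day 9 and 0 on Day 24. On the log2(TPM + 1) and log2(TPM + 0.1) scales there were 4 and 5 on Day 4, and 9 and 9 on Day 9, all lower in responders, as were 10122 and 10398 of 12020 genes on Day 4 and 10644 and 10800 of 12090 on Day 9. Within mice with 4-digit tags there were 0 on Day 4 and 0 on Day 9, within mice with 3-digit tags 0 on Day 4, and with the red cell marker level as a covariate 0 on both days. Requiring a fold change of at least 1.5 left 0 on Day 9. Leaving out each responder in turn gave 1 to 2 on Day 9 (Egr1 in addition without responder 2) and 1 on Day 4.

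For Day 9 against Day 4 in responders, 4 of 10 members were called, against 2 of the 8 tested with at least 10 counts in every library, 0 and 1 on the TPM scales, 2 with neutrophil and monocyte levels as covariates, 2 with the fold requirement, 1 in 4-digit mice, 5 in 3-digit mice and 5 with the mouse as a replicate block. For Day 17 the count of 2 became 0 on both TPM scales, 0 with the fold requirement and 0 in 3-digit mice. In non-responders the 9 of Day 9 became 5 and 4 on the TPM scales, 5 with the fold requirement and 3 in 4-digit mice. The 5 of Day 17 (4 higher, 1 lower) stood against 3 on log2(TPM + 1), all lower, 3 on log2(TPM + 0.1), 1 higher and 2 lower, and 2 with the fold requirement. In 4-digit mice none of the 5 passed, and the 1 member called was Jun. The count was 6 (5 higher, 1 lower) with DESeq2, with haemoglobin genes removed and with the mouse as a replicate block. It was also 6 without the Day 24 library of non-responder 29. The 6 of Day 24 (5 higher, 1 lower) stood against 5 on each TPM scale, all lower, where 8801 and 8088 of 12298 genes were lower, 0 with the fold requirement, 1 in 4-digit mice, and 4 both with at least 1 count in any library and when the Day 24 sample from non-responder 29 was left out. The difference of changes to Day 24 called 1 member, and 0 with at least 1 count in any library, on both TPM scales, without the Day 24 library of non-responder 29, or with the mouse as a replicate block. On the log2(TPM + 0.1) scale all 10 members were positive there (median 0.36), where the median of all genes was 0.49. The difference between the tag series to Day 9 called 1 member, and 0 with the mouse as a replicate block. Under the block Fos in responders on Day 9 was 0.87. The 19 relations with Fos became 36 on the log2(TPM + 1) scale and 10 in 4-digit mice, 9 of them positive. They became 13 in 3-digit mice and 17 without the 2 libraries farthest from the Fos median. The Day 17 difference of Jun was 0.0756 on the log2(TPM + 1) scale and 0.0736 in 3-digit mice, and that of Jund 0.17 in 3-digit mice.

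The reversed values listed from here on are those that passed in at least 1 of the fits compared. On the log2(TPM + 1) scale the response difference so reversed on Day 4 for Nr4a1 (-0.46), Jun (-0.16), Ier2 (-0.47) and Jund (-0.15), and on Day 9 for Atf3 (-0.21), Ier2 (-0.51) and Jund (-0.16). Fos (-0.03), Dusp1 (-0.34) and Junb (-0.41), positive in counts on Day 4, were also negative on this scale. In non-responders the change to Day 17 reversed for Jun (-0.10) and Junb (-0.13), and to Day 24 for Fos (-0.0404), Dusp1 (-0.0451), Atf3 (-0.0266), Jun (-0.12), Junb (-0.15) and Jund (-0.28). The difference of changes to Day 24 was 0.17 for Jund.

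On the log2(TPM + 0.1) scale the reversed values that passed in at least 1 fit were, on Day 4, Nr4a1 (-0.74), Jun (-0.54), Junb (-0.56), Ier2 (-0.71) and Jund (-0.16), and on Day 9 Atf3 (-0.55), Ier2 (-0.69) and Jund (-0.17). Fos (-0.27) and Dusp1 (-0.57), positive in counts on Day 4, were also negative on this scale. In non-responders the reversed values were Junb on Day 17 (-0.14) and, on Day 24, Dusp1 (-0.0207), Atf3 (-0.0635), Jun (-0.33), Junb (-0.18) and Jund (-0.30). The difference of changes to Day 24 was 0.18 for Jund, on a scale where every member was positive. With neutrophil and monocyte levels as covariates, non-responders gave -0.0941 for Nr4a1 and -0.0833 for Ier2 on Day 9 and -0.0432 for Junb on Day 17. In 4-digit mice Egr1 in non-responders on Day 9 was -0.0660, and in 3-digit mice Jun in responders on Day 17 was -0.17.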
